A study of Homo sapiens with 2 samples.

Results

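The 8 genes described here are CD44, HMMR, the hyaluronan synthases HAS1, HAS2 and HAS3 and the hyaluronidases HYAL1, HYAL2 and HYAL3, taken from 23365 genes listed for A673 cells. A673 is an established human Ewing sarcoma cell line. Poly(A) RNA was sequenced from cells that carried a lentiviral hairpin against RUNX3 (sh813) and from cells that carried a non-target hairpin (shNT), both after 6 days in 0.4 µg/mL puromycin. The virus was added with 6 µg/mL polybrene. Each group is 1 library, titled as a pool without saying what was pooled, and only 1 hairpin against RUNX3 was used. The genes were chosen by name with earlier fold changes of these libraries in view, that of CD44 among them, so every value below is a description and no difference was tested.

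CD44 is a cell surface receptor for hyaluronan, a long unsulfated polysaccharide of the matrix. The synthases extrude hyaluronan through the plasma membrane, the hyaluronidases cut it, and HMMR is a second hyaluronan-binding protein that also sits on the mitotic spindle. CD44 RNA is built from constitutive exons and a block of variable exons. The standard form skips the whole block, and other forms include some of its exons and extend the stalk of the protein.

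For both libraries the title names 1 hairpin and the shRNA field the other, and the titles are followed here as the 813 library and the NT library. With the characteristics in place of the titles every direction below would turn round. RUNX3, the targeted gene, had 387 read pairs in the 813 library and 1391 pairs in the NT library, which goes with the titles. The depth was 23342660 pairs assigned to genes in the 813 library and 24326135 in the NT library. CPM relates a gene's pairs to the effective library size (TMM scaling), and RPKM is the authors' value per kilobase of gene length. Genes count as measured from 1 CPM upward in either library. This lets in genes through the library where they are high. PTX3, TIAM1, KDR and PAMR1, called higher below, reached 1 CPM in the 813 library only. A call of higher or lower needed a difference of 2-fold and a 95% interval wholly beyond 1.5-fold. Intervals are exact and cover counting error only.

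Of 12254 measured genes, 11.6% were called, 8.13% higher and 3.48% lower in the 813 library. These were 996 and 427 genes. Plain total counts in place of TMM gave 1330 higher and 302 lower, the totals without the 20 most abundant genes 1325 and 313, and the authors' RPKM totals 1290 and 302. With a trend on GC content and length removed there were 675 higher and 291 lower. Of the 8 genes, 5 were measured, and 1 of them, CD44, was called, on the higher side. HMMR, HAS3, HYAL2 and HYAL3 were measured and not called. HYAL1, HAS1 and HAS2 lay under 1 CPM in both libraries. With a single called gene, the share read against the background says nothing about the family.

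The exon records of CD44 cover its constitutive and its variable exons, and the joints and exons that the read counts below turn on are printed here from the GENCODE transcripts (GRCh38, chromosome 11, plus strand). In the first pair the lower-case letters end constitutive exon 5. The capitals open the exon that follows it, constitutive exon 6 in the standard form and variable exon v2 in the longer form. The standard joint spans chr11:35190036-35214881 and the variable joint chr11:35190036-35196775, introns included.
standard joint: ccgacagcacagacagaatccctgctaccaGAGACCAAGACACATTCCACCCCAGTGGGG
variable joint: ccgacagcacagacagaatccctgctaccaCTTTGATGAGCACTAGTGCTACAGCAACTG
Both joints share their first 30 bases and differ after them. The next 3 exons are constitutive exon 2 (chr11:35176575-35176740), which encodes part of the hyaluronan-binding link module, v3 (chr11:35198121-35198246) and v6 (chr11:35204512-35204640). The capitals in v3 mark the codons of a Ser-Gly-Ser-Gly motif, where heparan sulfate is attached, and v6 is known as the part of CD44 that assists signalling through the receptor MET.
exon 2: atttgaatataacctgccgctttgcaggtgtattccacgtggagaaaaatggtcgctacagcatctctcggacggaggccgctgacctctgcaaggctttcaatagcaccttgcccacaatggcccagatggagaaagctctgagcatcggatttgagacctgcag
v3: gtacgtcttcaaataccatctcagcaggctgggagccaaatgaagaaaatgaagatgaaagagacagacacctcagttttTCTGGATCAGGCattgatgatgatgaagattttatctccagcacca
v6: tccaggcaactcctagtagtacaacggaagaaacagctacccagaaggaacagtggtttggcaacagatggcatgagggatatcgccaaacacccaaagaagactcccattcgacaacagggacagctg

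CD44 (chr11:35160417-35253949 in hg19) had 279 pairs in the 813 library and 40 pairs in the NT library. Its level was 11.4 CPM in the 813 library and 1.72 CPM in the NT library. This is 6.55-fold higher (4.74 to 9.47), or 2.71 (2.24 to 3.24) as a log2 fold. Of all measured genes, 99.5% had a lower log2 fold. In bulk RNA, fewer cells of a type and less RNA per cell cannot be told apart. Among 1584 measured genes whose CPM in the NT library lay within 1.5-fold of that of CD44, 8 had a larger log2 fold.

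Per length, CD44 was the third of the 8 genes in the 813 library, at 1.37 RPKM (1.22 to 1.54), and the fifth in the NT library, at 0.190 RPKM (0.136 to 0.258). It stood above HMMR in the 813 library, with a ratio of RPKM values of 2.30, and below HMMR in the NT library, with a ratio of 0.219. HYAL2 and HYAL3 came first and second in both libraries. HYAL2 had an RPKM 12.6 times that of CD44 in the 813 library and 83.0 times in the NT library. In the 813 library the intervals of neighbours in this order were apart down to HAS3, and those of HAS3, HYAL1, HAS1 and HAS2 overlapped from each gene to the next. In the NT library they were apart down to HAS3, and from HAS3 through CD44, HYAL1, HAS1 and HAS2 each overlapped the next.

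**Figure D1:**
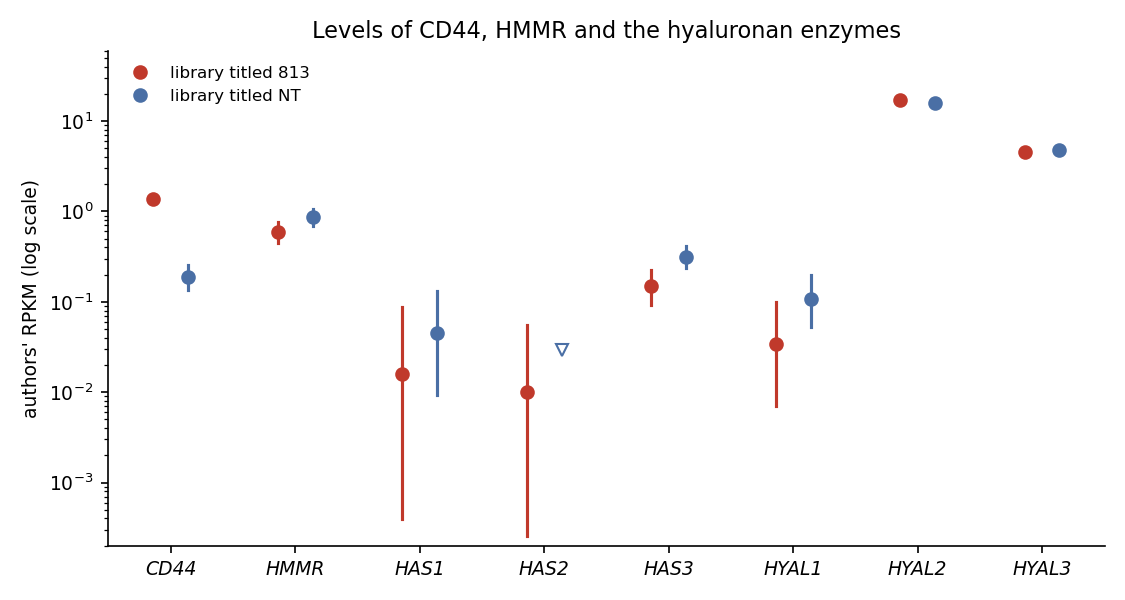
The authors' RPKM (log axis) of the 8 genes in the 813 library (red) and the NT library (blue), with exact 95% Poisson intervals as bars; the open triangle marks the level of 3 pairs for HAS2, which had 0 pairs in the NT library. CD44 is the gene whose 2 points lie farthest apart among the 5 measured genes, at 1.37 RPKM in the 813 library and 0.190 in the NT library.

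**Figure D2:**
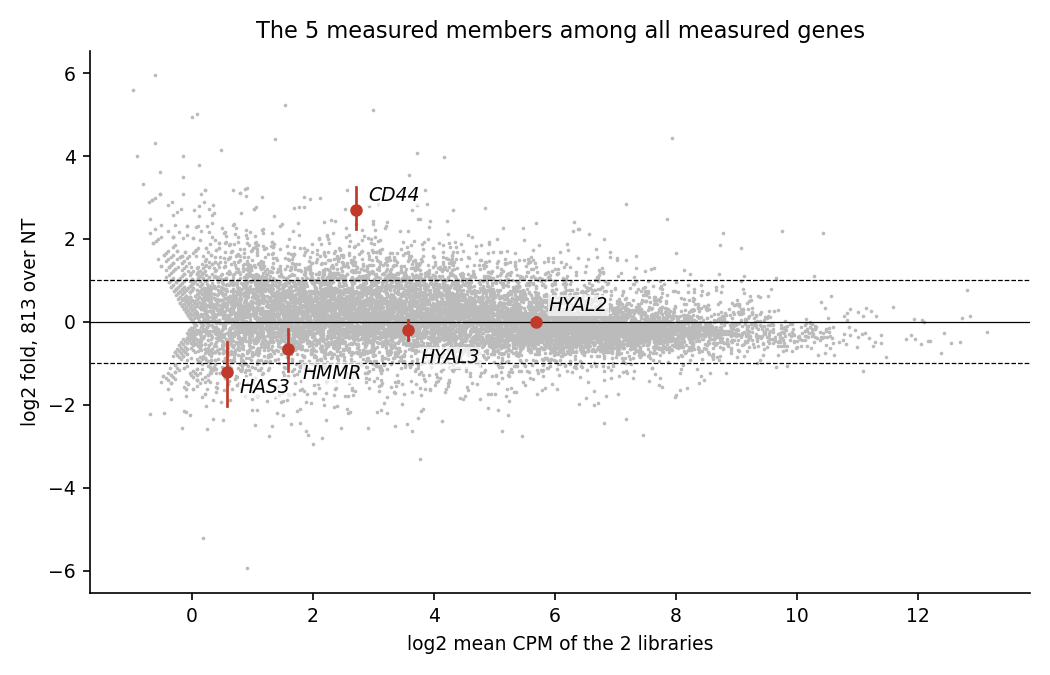
Log2 fold of the 813 library over the NT library against the log2 mean CPM for 12254 measured genes (grey), with the 5 measured members in red and their 95% intervals; dashed lines mark 2-fold. CD44 lies at 2.71, above 2-fold, and HAS3 at -1.21 has an interval that crosses the lower line.

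All 20 exon records of CD44 held reads in both libraries, and all 20 had a log2 fold above 0. No record overlapped an exon of another gene. The 18 records of the longest form matched the exons of the GENCODE transcript in order and length. The other 2 are alternative records near the 3' end. Over the 9 constitutive exons the reads summed to 657 in the 813 library and 100 in the NT library. The log2 fold was 2.63 (2.21 to 3.10).

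Constitutive exons 2 and 3, which encode the link module, had 49 and 51 reads in the 813 library and 17 and 12 reads in the NT library. Constitutive exon 5, just before the variable block, had 78 reads in the 813 library and 11 in the NT library. Exon 6, just after the block, had 24 reads in the 813 library and 3 in the NT library. The last exon (chr11:35250676-35253949), which ends the long cytoplasmic tail, had 305 reads in the 813 library and 32 in the NT library, the most of any record in both libraries. The first record, of 501 bases, had 37 reads in the 813 library and 9 in the NT library.

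The 9 variable exon records (v2 to v10) differed from the constitutive ones in having equal counts. Each of them held 12 reads in the 813 library and each held 3 reads in the NT library, although they run from 90 bases (v9) to 204 bases (v10). Exon v3, printed above, held the same reads as v6, 12 in the 813 library and 3 in the NT library. A run of 9 or more consecutive records with the same nonzero pair of counts was found in 13 of 9993 genes with that many records. How a read that is spliced across several exon records was counted is not given in the sources used here, and its part in these equal counts was not tested.

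Reads per kilobase over the variable block were 94.5 in the 813 library and 23.6 in the NT library, against 143 in the 813 library and 21.8 in the NT library over the constitutive exons. The ratio of variable to constitutive density was 0.660 (0.240 to 1.45) in the 813 library and 1.08 (0.0762 to 4.87) in the NT library. These densities and ratios sum the equal counts of the 9 records, 108 reads in the 813 library and 27 in the NT library. The intervals take the 12 or 3 reads once. Whether the same reads were counted in every record is not known, so the ratios do not measure inclusion of variable exons. The first and last exons are long and thinly covered. Without them the ratio was 0.244 (0.0883 to 0.543) in the 813 library and 0.326 (0.0225 to 1.52) in the NT library. The intervals of the 2 libraries overlapped either way.

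A split of the constitutive exons at the variable block was made after the values were seen. Reads over exons 1 to 5 were 258 in the 813 library and 56 in the NT library, with a log2 fold of 2.11 (1.53 to 2.77). Reads over exons 6 to 9 were 399 in the 813 library and 44 in the NT library, with a log2 fold of 3.08 (2.47 to 3.81). Both parts were higher in the 813 library, and their intervals overlapped. Most of the second part came from the last exon, with a log2 fold of 3.14 (2.43 to 4.02).

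**Figure D3:**
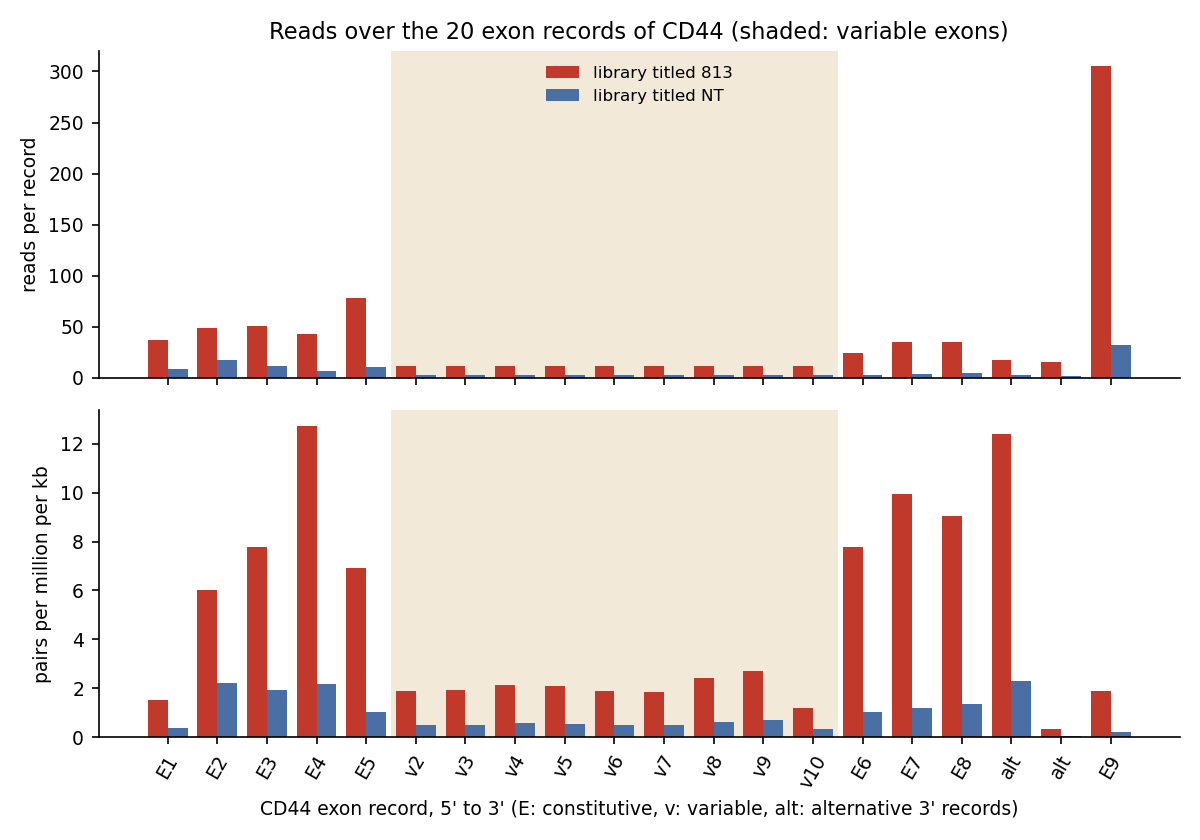
Reads (upper panel) and CPM per kilobase (lower panel) over the 20 exon records of CD44 from 5' to 3' in the 813 library (red) and the NT library (blue), with the variable exons shaded. The 9 shaded records show flat bars of 12 reads in the 813 library and 3 in the NT library, while constitutive exon 5 before them shows 78 in the 813 library and 11 in the NT library.

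HMMR (chr5:162887517-162918953 in hg19), the receptor for hyaluronan-mediated motility, had 57 pairs in the 813 library and 86 pairs in the NT library. Its level was 2.33 CPM in the 813 library and 3.70 CPM in the NT library. The log2 fold was -0.66 (-1.18 to -0.17), which did not reach 2-fold. Its direction was opposite to that of CD44. All 19 exon records had reads in at least 1 library, 16 with a log2 fold below 0 and 3 above 0, and 3 of the 16 had equal reads in both libraries before scaling. The last record had 25 reads in the 813 library and 46 in the NT library. The records with the lowest and the highest log2 fold, picked after the values were seen, were these. Record 17 (chr5:162911075-162911251) had 2 reads in the 813 library and 19 in the NT library (log2 fold -2.81, -8.77 to -0.49). Record 12 (chr5:162902464-162902678) had 25 in the 813 library and 10 in the NT library (log2 fold 1.17, -0.35 to 3.10), an interval that includes 0.

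The 21 genes listed as mitotic partners of HMMR, with the proliferation genes MKI67 and TOP2A among them, were all measured. Of these, 1 was called lower and 0 higher, beside 3.48% lower and 8.13% higher of all measured genes. The median log2 fold was -0.14, against 0.01 over all measured genes, and 7 of the 21 had a log2 fold above 0. The lower one was CDK1, the mitotic cyclin-dependent kinase, with 511 pairs in the 813 library and 1127 in the NT library (log2 fold -1.22, -1.37 to -1.06).

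**Figure D4:**
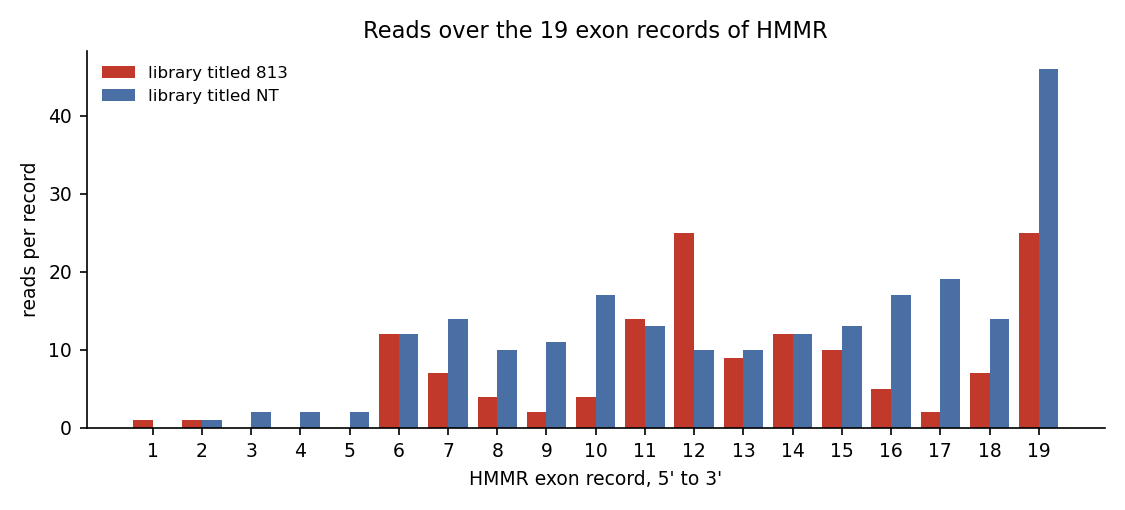
Reads over the 19 exon records of HMMR from 5' to 3' in the 813 library (red) and the NT library (blue). The NT library is higher in most records, as in the last one with 25 reads in the 813 library and 46 in the NT library, and record 12 runs the other way with 25 in the 813 library and 10 in the NT library.

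The 3 hyaluronan synthases held 24 pairs together in the 813 library and 52 pairs in the NT library, nearly all of them from HAS3. HAS3 (chr16:69139467-69152619 in hg19) had 22 pairs and 0.899 CPM in the 813 library, against 49 pairs and 2.11 CPM in the NT library. Its log2 fold was -1.21 (-2.03 to -0.48). This passed 2-fold, but the interval came within 1.5-fold and the gene was not called. With the counts as deposited, not divided into pairs, the interval was -1.78 to -0.70 and HAS3 was called lower.

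Most HAS3 reads outside its overlap lay in one long exon (chr16:69148246-69151570), with 37 reads in the 813 library and 86 in the NT library. The last HAS3 record (chr16:69152258-69152619) had 1631 reads in the 813 library and 1777 in the NT library. It overlaps an exon of CHTF8 that had 9200 reads in the 813 library and 9521 in the NT library. Without a stated strand setting the reads of the 2 genes cannot be told apart there. The HAS3 gene counts, 44 reads in the 813 library and 98 in the NT library, are far below that record, so the gene counts do not hold those reads.

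HAS1 (chr19:52216365-52227221 in hg19) had 1 pair in the 813 library and 3 pairs in the NT library. HAS2 (chr8:122625271-122653630 in hg19), the synthase of many mesenchymal cells, had 1 pair in the 813 library and 0 in the NT library. A count of 0 allows a level of up to 0.129 CPM there. Both genes were at or under 3 pairs in both libraries, so no fold is given. The antisense gene HAS2-AS1 had 0 pairs in both libraries.

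Per length, the hyaluronidase genes HYAL2 and HYAL3 were the most abundant of the 8 genes, and neither differed by 2-fold. HYAL2 (chr3:50355221-50360281 in hg19), a membrane-anchored enzyme that cuts long hyaluronan, had 1269 pairs in the 813 library and 1200 pairs in the NT library. Its level was 51.9 CPM in the 813 library and 51.7 CPM in the NT library, with a log2 fold of 0.01 (-0.11 to 0.12). Its 4 records with reads had log2 folds from -0.004 to 0.12. The record with the highest coordinates (chr3:50360084-50360281) had 0 reads in both libraries.

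HYAL3 (chr3:50330259-50336899 in hg19) had 273 pairs in the 813 library and 297 pairs in the NT library, which is 11.2 CPM in the 813 library and 12.8 in the NT library. The log2 fold was -0.20 (-0.44 to 0.04). Its pair of records with the highest coordinates overlaps exons of NAT6, an acetyltransferase gene whose other exons lie between those of HYAL3. NAT6 had 145 pairs in the 813 library and 203 in the NT library (log2 fold -0.56, -0.88 to -0.25), and the reads in the shared exons cannot be assigned to either gene. HYAL1 (chr3:50337320-50349812 in hg19), the lysosomal and serum hyaluronidase, had 3 pairs in the 813 library and 10 pairs in the NT library. The ratio was 0.316 with an interval of 0.0503 to 1.11. The 3 genes are neighbours on chromosome 3, and HYAL2 alone was above 50 CPM.

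Other genes of hyaluronan metabolism were listed by role, with the results of these libraries known from earlier work. In 4 lists of 38 genes, 19 were measured, 4 were called higher and 0 lower. That is 21.1% higher, against 8.13% of all measured genes. PTX3, 1 of the 4, was measured only through the 813 library, where it is high, so the share is a description only. The median log2 fold of the 19 measured genes was 0.32, against 0.01 over all measured genes. The other 19 lay under 1 CPM, among them VCAN (versican) with 21 pairs in the 813 library and 15 in the NT library and HAPLN1, a link protein, with 2 in the 813 library and 3 in the NT library.

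None of the 9 genes listed for precursor synthesis, the deaminases GNPDA1 and GNPDA2 among them, was called, beside 11.6% of all measured genes. Their median log2 fold was 0.05, and 6 of the 9 had a log2 fold above 0. UGDH, which makes the UDP-glucuronate used by the synthases, had 244 pairs in the 813 library and 175 in the NT library (log2 fold 0.40, 0.12 to 0.69). GFPT1, the entry enzyme of the hexosamine pathway, had 729 pairs in the 813 library and 555 in the NT library (log2 fold 0.32, 0.16 to 0.48). The largest log2 fold of the list was that of GNPNAT1, with 541 pairs in the 813 library and 273 in the NT library (0.91, 0.70 to 1.13). In the other direction, UAP1 had 393 pairs in the 813 library and 518 in the NT library (log2 fold -0.47, -0.67 to -0.28). GNPDA1 of the same list, which acts in reverse to GFPT1, also had a log2 fold below 0 (-0.16, -0.23 to -0.08).

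Of 5 measured genes of further hyaluronan breakdown, 2 were higher, beside 8.13% of all measured genes. Of these, TMEM2, a transmembrane protein reported to cut hyaluronan at the cell surface, had 275 pairs in the 813 library and 123 in the NT library (log2 fold 1.08, 0.77 to 1.40). KIAA1199, a secreted hyaluronan-binding protein, had 57 pairs in the 813 library and 38 in the NT library (log2 fold 0.50, -0.11 to 1.14).

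Of 4 measured hyaluronan-binding matrix proteins, 1 was higher, beside 8.13% of all measured genes. The higher one was PTX3, a pentraxin that helps cross-link hyaluronan. PTX3 had 59 pairs in the 813 library and 12 in the NT library (log2 fold 2.18, 1.31 to 3.25). TNFAIP6, which transfers heavy chains onto hyaluronan, had 16.0 CPM in the 813 library and 26.3 in the NT library, with a log2 fold of -0.71 (-0.90 to -0.53). Of 6 further receptors, LAYN was the measured one and was higher, beside 8.13% of all measured genes. It had 665 pairs in the 813 library and 253 in the NT library (log2 fold 1.32, 1.11 to 1.53). Lists of 5, 4 and 1 measured genes are too small for a share to be read. LAYN encodes layilin, a C-type lectin that binds hyaluronan. LYVE1, the lymphatic hyaluronan receptor, had 2 pairs in the 813 library and 1 in the NT library.

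Of 14 genes for proteins that bind the cytoplasmic tail of CD44, or act just below it, all were measured. Of these, 3 were higher, 1 was lower and 10 were called neither way, beside 8.13% higher and 3.48% lower of all measured genes. Their median log2 fold was 0.20, against 0.01 over all measured genes. The ezrin, radixin and moesin genes, which tie CD44 to actin, had log2 folds of -0.07 (EZR), 0.43 (RDX) and -0.36 (MSN), and none was called. TIAM1, an exchange factor for RAC, had 34 pairs in the 813 library and 5 in the NT library (log2 fold 2.57, 1.33 to 4.40). ARHGEF12, an exchange factor for RHOA, had 1040 pairs in the 813 library and 364 in the NT library (log2 fold 1.44, 1.27 to 1.62). ANK1, an ankyrin, had 164 pairs in the 813 library and 58 in the NT library (log2 fold 1.42, 0.98 to 1.88). ARHGEF1, another exchange factor for RHOA, was lower, with 2883 pairs in the 813 library and 9240 in the NT library (log2 fold -1.76, -1.82 to -1.70).

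Of 10 genes that cut CD44 or form gamma-secretase, all measured, 3 were higher and 1 lower, beside 8.13% higher and 3.48% lower of all measured genes. Their median log2 fold was 0.44, against 0.01 over all measured genes. MMP9, a gelatinase that docks on CD44, had 1173 pairs in the 813 library and 346 in the NT library (log2 fold 1.68, 1.51 to 1.86). ADAM10, a sheddase of CD44, had 175 pairs in the 813 library and 81 in the NT library (log2 fold 1.03, 0.65 to 1.43), and APH1B, a gamma-secretase subunit, had 340 pairs in the 813 library and 133 in the NT library (log2 fold 1.28, 0.99 to 1.58). PSEN2, a presenilin, was lower, with 6.09 CPM in the 813 library and 14.8 in the NT library and a log2 fold of -1.28. MMP14, the membrane protease that releases CD44 from the surface, had 9278 pairs in the 813 library and 7029 in the NT library (log2 fold 0.32, 0.28 to 0.37).

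Of 10 ligands and co-receptors of CD44, 5 were measured and 0 were called, beside 11.6% of all measured genes. SPP1, the CD44 ligand osteopontin, had 10 pairs in the 813 library and 1 pair in the NT library and lay under 1 CPM in both. MET, the co-receptor that uses v6, had 24 pairs in the 813 library and 20 in the NT library and also lay under 1 CPM.

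Of 20 regulators of variable exon splicing found among the listed genes, 18 were measured. In either direction 0 were called, beside 11.6% of all measured genes. Their median log2 fold was 0.07, and 10 of the 18 had a log2 fold above 0. SRSF1 had 3081 pairs in the 813 library and 1724 in the NT library (log2 fold 0.76, 0.68 to 0.85). KHDRBS1, the signal-responsive splicing factor Sam68, had 2777 pairs in the 813 library and 1762 in the NT library (log2 fold 0.58, 0.49 to 0.67). In the other direction were KHDRBS3 (log2 fold -1.02, -1.94 to -0.18), SND1 (-0.54, -0.58 to -0.51) and PCBP1 (-0.51, -0.54 to -0.48). The epithelial splicing factors ESRP1 and ESRP2, which promote inclusion of variable exons, lay under 1 CPM in both libraries.

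**Figure D5:**
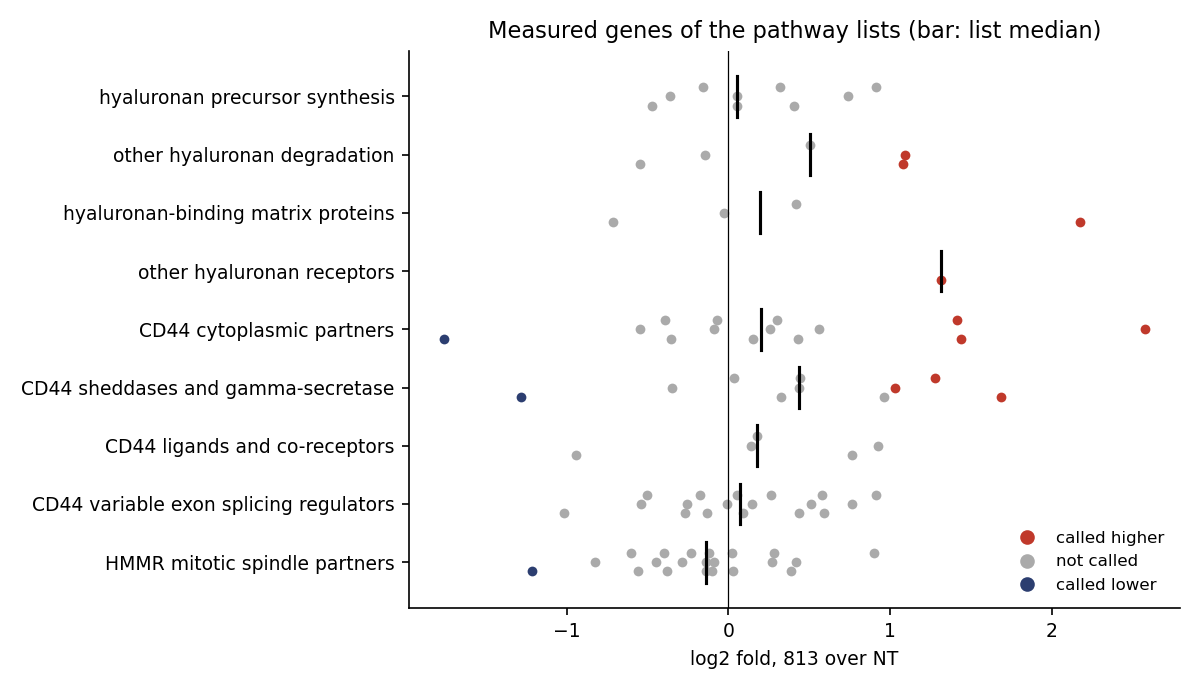
Log2 fold of the 813 library over the NT library for the measured genes of 9 lists around CD44, hyaluronan and HMMR, coloured by call, with a bar at each list median. The medians of the lists with at least 4 measured genes run from -0.14 (HMMR mitotic partners) to 0.50 (other hyaluronan degradation).

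By likeness of fold at a similar level, the 5 genes nearest to CD44 over these 2 libraries were ACE (log2 fold 2.71), RASGRF2 (2.80), SEZ6 (2.84), PLAT (2.45) and HTRA1 (2.43). ACE had 245 pairs in the 813 library and 35 in the NT library, close to those of CD44. PLAT, tissue plasminogen activator, had 204 pairs in the 813 library and 35 in the NT library. For HMMR the nearest of 1767 genes included C11orf74 and AKAP9, with log2 folds of -0.66 and -0.67. With 2 libraries, likeness rests on a single ratio.

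Genes around CD44 on chromosome 11 were looked at after its value was seen. Of 8 genes within 500 kb, 5 were measured and 1 was called, beside 11.6% of all measured genes. PDHX, 143 kb upstream, had 255 pairs in the 813 library and 257 in the NT library (log2 fold -0.09, -0.34 to 0.17). SLC1A2, the nearest gene at 18.8 kb downstream, had 3 pairs in the 813 library and 2 in the NT library. PAMR1, 199 kb downstream, had 33 pairs in the 813 library and 4 in the NT library (log2 fold 2.82, 1.48 to 4.93), and was called higher. TRIM44 had a log2 fold of 0.83 (0.74 to 0.92).

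Promoter windows of 250 bases before to 50 bases after each start were held by RefSeq (GRCh38.p14) for 7 of the 8 genes. The RefSeq start of CD44 lies 301 bases inside its deposited first exon of 501 bases, so the CD44 window lies wholly within that exon and holds no sequence upstream of it. The core RUNX motif TGTGGT, searched on both strands, was in 13.1% of 35116 promoter windows, and the second form TGCGGT in 7.29%. Neither was in a window of the 7 genes, and none of the motifs searched contains another. The AP-1 motif TGANTCA was in 7.71% of all windows and in none of these. The doubled ETS core GGAAGGAA was in 3.67% of all windows and in that of HAS3. A missing match says only that the letters are not in the window.

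Both libraries carried the markers of the line. CD99, the surface protein used to recognise Ewing sarcoma, had 98474 pairs in the 813 library and 88396 in the NT library and a log2 fold of 0.08. All 9 Ewing sarcoma markers were measured and 2 were called, both lower, beside 3.48% lower of all measured genes. These 2 were the transcription factor NKX2-2 (log2 fold -1.43, -1.50 to -1.36) and the nuclear receptor NR0B1 (-1.11, -1.17 to -1.05). CD44 is abundant in leukocytes, fibroblasts and endothelium, so markers of those cells were set beside it. The 7 leukocyte markers summed to 14.0 CPM in the 813 library and 14.1 CPM in the NT library. CD68 held most of this (11.2 CPM in the 813 library and 11.7 in the NT library). CD14 had 30 pairs in the 813 library and 14 in the NT library (log2 fold 0.997, 0.06 to 2.05), the direction of CD44. LYZ had 24 pairs in the 813 library and 30 in the NT library (log2 fold -0.39, an interval that includes 0). None of the 7 was called, and the defining gene PTPRC had 0 pairs in the 813 library and 1 in the NT library. The 6 fibroblast markers summed to 2979 CPM in the 813 library and 2467 in the NT library, nearly all from COL1A2 and THY1. DCN had 124 pairs in the 813 library and 146 in the NT library (log2 fold -0.31, -0.67 to 0.04). LUM had 33 pairs in the 813 library and 23 in the NT library (log2 fold 0.44, -0.37 to 1.28). The defining gene PDGFRA had 3 pairs in the 813 library and 4 in the NT library, and FAP had 2 and 9. None of the 6 was called. The 5 endothelial markers summed to 3.56 CPM in the 813 library and 1.68 in the NT library, and KDR and PECAM1 were measured. KDR was called higher (52 pairs in the 813 library and 5 in the NT library, log2 fold 3.18, 1.99 to 4.98). PECAM1 had 28 pairs in the 813 library and 18 in the NT library. Its log2 fold was 0.55, with an interval that includes 0, and it was not called. CDH5 had 2 pairs in the 813 library and 8 in the NT library. VWF had 5 pairs in the 813 library and 8 in the NT library, and TEK 0 in both. The 5 epithelial markers summed to 674 CPM in the 813 library and 635 in the NT library, from KRT18 and KRT8, while EPCAM had 0 pairs in the 813 library and 1 in the NT library, and none was called. The 6 markers of HEK 293T, the line that made the virus, summed to 154 CPM in the 813 library and 195 in the NT library. ADRB3 held most of this (145 CPM in the 813 library and 182 in the NT library). Which cells the ADRB3 reads came from was not tested. NEFL had 73 pairs in the 813 library and 122 in the NT library (log2 fold -0.81, -1.26 to -0.39). NEFM had 105 pairs in the 813 library and 75 in the NT library (log2 fold 0.41, -0.03 to 0.86). LIN28B had 2 pairs in both libraries, and PAX2 had 0 pairs in the 813 library and 1 in the NT library. In the same list GATA3 was lower (33 pairs in the 813 library and 93 in the NT library, log2 fold -1.56, -2.19 to -0.98). The part of KDR, CD14, GATA3, NKX2-2 and NR0B1 in the result for CD44 was not tested.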

How the data were processed

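Deposited were, for each of the 2 libraries, raw counts and the authors' RPKM per gene and per exon, per the file headers. Per the submitters' processing notes, CASAVA 1.9, TopHat2 2.0.6 and HTSeq were used on hg19. What each did, the annotation and the strand setting were not stated there. All deposited gene counts were even while 36.4% and 35.5% of the exon counts were odd, so gene counts were divided by 2 and read as pairs. Counts as deposited were run as an alternative. Exon reads are given as deposited and were divided by 2 for folds and intervals. The totals behind the authors' RPKM, worked out from the deposited counts, gene lengths and RPKM, were 60848394 (813) and 63156235 (NT) reads.

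From 23398 rows, 33 repeats were dropped. Libraries were scaled by TMM (edgeR 4.0.16, R 4.3.3), with factors of 1.05 and 0.954. The log2 fold is 813 over NT with a prior of 0.5 pairs, and its 95% interval treats the 813 count as binomial given the sum of both (Clopper-Pearson, exact; scipy 1.17.1, numpy 2.4.6, pandas 2.3.3, Python 3.11.15). PCR copies are not independent molecules, so intervals and the floor of 3 pairs cover counting error only. No test was possible across genes or for any gene with 1 library per group. The rule of size was run on simulated counts with counting error only, which cannot show how it behaves under differences between cultures or hairpins.

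The members and gene lists were chosen with earlier results of these data known. The named genes are all 8 members, RUNX3, overlapping genes, up to 3 called genes per list and direction, and the genes nearest in fold to CD44 and HMMR at a similar level. Other list genes were named after their values were seen, for their known roles. Exon sequences came from GENCODE 29 and were matched to the hg19 records by order and length. A few genes that this rule names are not reported here.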

Additional observations from a re-analysis of the deposited data

How the results depend on the processing

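Alternatives covered 4 other scalings, counts as deposited, the authors' RPKM totals, a prior of 2, other filters on low counts, sums of exon records, and removal of a trend on GC content and length (mgcv; 89.9% of measured genes had both values). CD44 was called higher under all 11, with log2 folds from 2.32 (trend removed) to 2.85 (plain totals). The number of the 8 genes called was 2 with counts as deposited, where HAS3 joined. HAS3 kept a log2 fold from -1.25 to -1.08 except with sums of exon records (-0.24), which take in reads shared with CHTF8, and HMMR ran from -0.76 to -0.53. HYAL2 ran from -0.03 to 0.32 and HYAL3 from -0.23 to 0.21, so neither has a direction that holds. Plain totals moved all log2 folds up by 0.14. The constitutive exons of CD44 ran from 2.32 to 2.76. No paired analysis was possible because each group has 1 library, and for the same reason no library could be left out. With 40 CD44 pairs in the NT library and 3 reads per variable exon, depth limits any statement on CD44 forms there.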
